A study of Homo sapiens with 6 samples.

Results

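HSP90 chaperones and their cochaperones are the 10 genes HSP90AA1, HSP90AB1, TRAP1, CDC37, CDC37L1, AHSA1, STIP1, PTGES3, FKBP4 and FKBP5. Their members were taken as every probe set, a group of array probes summarised to 1 value, whose annotation names exactly 1 gene and that gene is one of these. The rule found 23 probe sets among 49293 tested, and they measured 9 of the 10 genes, among 18132 genes in all. AHSA1, the activator of the HSP90 ATPase, had no such probe set and was not analysed here. The 10 genes were chosen with earlier results of these arrays known, CDC37L1 having been selected on its log2 difference between the groups, so the differences below are a description and not independent evidence.

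The cells were SH-SY5Y, an established human neuroblastoma line with features of sympathetic neurons. One group of 3 arrays came from cells given 3 µM endosulfan for 24 h, and the other group of 3 arrays came from control cells. Endosulfan is a chlorinated insecticide that acts on the GABA-gated chloride channels of neurons. The labels put the dose at a fraction of the LC50, give medium with serum for all samples, and call the arrays biological replicates without naming cultures, passages or days. The treatment of control cells is not stated in the labels, and where replicates share a culture the p-values measure only the spread between these samples. All values are log2 values per probe set, made by the authors with RMA, which corrects background, normalizes arrays to shared quantiles and summarises probes.

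HSP90 is an ATP-driven dimer that folds late-stage clients such as kinases and steroid receptors, and its cochaperones load clients, set the pace of the ATPase cycle or act on particular client classes. The cytosol holds a stress-inducible form, HSP90 alpha, and a constitutive form, HSP90 beta, while the ER and the mitochondrion have forms of their own. HSF1, the heat shock factor, is held inactive by HSP90 and, once free, drives chaperone genes through heat shock elements in their promoters.

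The promoters of the 2 cytosolic HSP90 genes are shown because they carry repeated heat shock element cores and because HSP90AA1 has the widest lower difference among the members. For each gene the start shown was picked because it holds the cores, and the other annotated starts of the gene held none. Both sequences are from RefSeq on GRCh38.p14 and cover the 250 bases before an annotated start, 5′ to 3′, with the cores in capitals. The HSP90AA1 region is chr14:102087045-102087294 on the minus strand, and the HSP90AB1 region, at the third annotated start of the gene, is chr6:44247693-44247942 on the plus strand.
HSP90AA1: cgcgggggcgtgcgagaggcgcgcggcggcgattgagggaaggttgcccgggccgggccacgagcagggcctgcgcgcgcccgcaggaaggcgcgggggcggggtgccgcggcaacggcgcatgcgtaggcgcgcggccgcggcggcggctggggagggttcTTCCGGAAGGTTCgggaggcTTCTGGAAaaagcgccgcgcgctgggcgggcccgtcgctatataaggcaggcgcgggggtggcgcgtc
HSP90AB1: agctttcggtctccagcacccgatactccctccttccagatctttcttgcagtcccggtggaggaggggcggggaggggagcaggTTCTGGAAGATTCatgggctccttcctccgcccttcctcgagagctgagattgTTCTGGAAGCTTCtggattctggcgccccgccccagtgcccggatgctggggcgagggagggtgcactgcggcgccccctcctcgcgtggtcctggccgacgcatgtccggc

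The cores searched were GAANNTTC and TTCNNGAA, each of which reads the same on both strands, and matches were allowed to overlap. In HSP90AA1 the 3 matches start at -88, -83 and -68 from the annotated start, and the first pair overlaps. In HSP90AB1 the 4 matches start at -165, -160, -112 and -107 and form 2 overlapping pairs. Over windows of 300 bases, from 250 before to 50 after a start, 13.5% of 35116 RefSeq promoters held at least 1 match and 0.194% held 3 or more. RefSeq gave 14 such windows for 8 of the 10 genes, and 3 of the windows held a match. The third was at a start of STIP1, with 1 match that begins at 14 after the start. A match is a description of these letters only, and no factor was measured on them.

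Array medians were 4.89 to 4.92 in endosulfan and 4.90 to 4.94 in control arrays. RMA normalizes arrays to shared quantiles, so near-equal medians do not show that the arrays were alike. Upper quartiles were 6.575 to 6.665 in endosulfan and 6.669 to 6.743 in control arrays and did not overlap. Their two-sided exact permutation p was 0.1, the smallest that 3 arrays against 3 can give. No pair of arrays held identical values. Sympathetic neuroblast markers fixed for the cell line were high: their mean lay between 10.49 and 10.66 in endosulfan and between 10.90 and 11.15 in control arrays, and 12 of 12 measured genes were above the median of all probe sets, 4.92. Markers of blood cells, with a mean of 3.83 to 4.03 in endosulfan and 3.87 to 3.98 in control arrays, had 0 of 3 genes above it. Of the other marker lists, 3 of 3 Schwann or glial, 3 of 4 endothelial, 2 of 4 mesenchymal and 1 of 4 epithelial genes were above it. Their list means lay between 4.16 and 6.31 in endosulfan and between 4.17 and 6.21 in control arrays, and 0 of these genes passed limma after Benjamini-Hochberg adjustment. Bacterial poly-A transcripts spiked into the RNA before labelling had mean levels of 7.90, 7.82 and 8.90 in endosulfan arrays 1 to 3 and 6.19, 7.83 and 5.84 in control arrays 1 to 3. Control 2 thus stood at the level of endosulfan 1 and 2, and differences of the members that take this level into account are given beside them. For genes outside the members they are not given here.

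Both probe sets of HSP90AA1 were lower in every endosulfan array than in every control array, and 2 of the 3 of CDC37L1 were higher. The remaining probe set of CDC37L1 and every probe set of the other genes measured overlapped between the groups. None of the 23 probe sets and none of the 9 genes passed limma with Benjamini-Hochberg adjustment at 0.05, whether adjusted over the probe sets or the genes, and the adjusted p ran from 0.215 to 0.996 for the probe sets and from 0.196 to 0.988 for the genes, each gene standing by its brightest probe set. Among all that were tested, 0.00811% of probe sets and 0.00552% of genes passed. At an unadjusted p below 0.05, 2 probe sets were higher and 4 lower, where the shares over all probe sets are 6.3% and 9.21%. The groups did not overlap for 2 probe sets on the higher and 2 on the lower side, where 11.5% and 9.24% of all probe sets do so. The median log2 difference of the 23 probe sets was 0.06, against 0.05 over all probe sets. With limma's array weights, which let arrays count unequally, 5 of the 23 probe sets and 4 of the 9 genes passed, where 14.4% of all probe sets and 32.6% of all genes did. Nothing is read from these shares, because the members were chosen with this contrast in view.

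**Figure D1:**
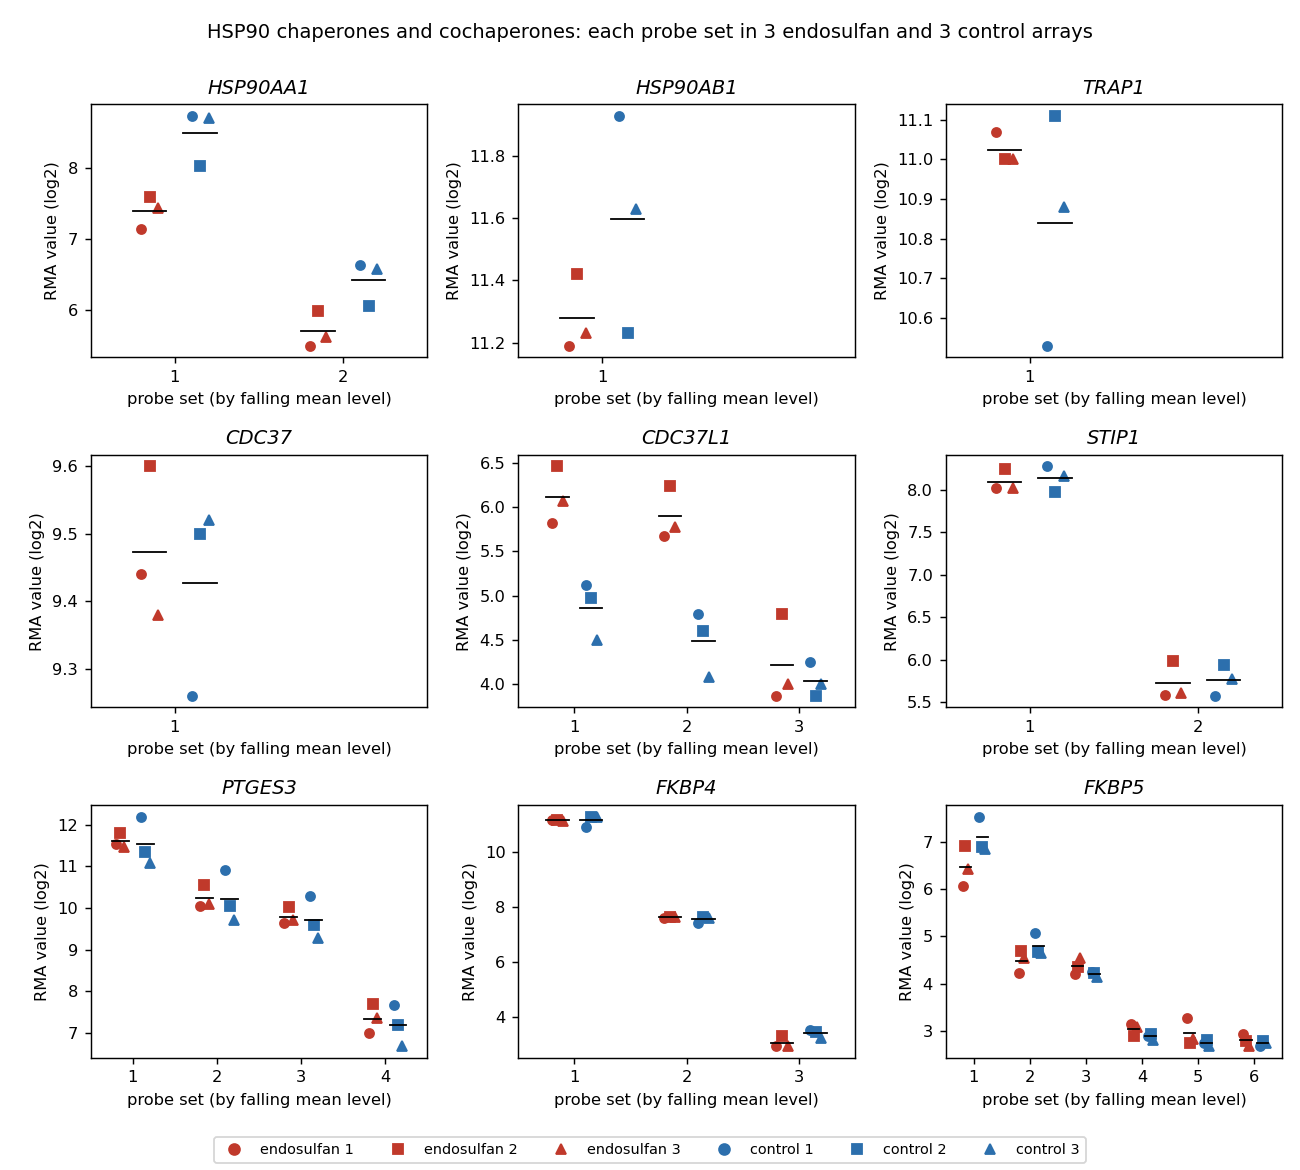
RMA values (log2, vertical axis) of the 23 probe sets in 9 panels, 1 per gene, with probe sets numbered by falling mean level. Red symbols are endosulfan and blue symbols control arrays, the shape gives the replicate number and the black line the mean of 3 arrays. The groups separate in both probe sets of HSP90AA1 and in 2 of the 3 of CDC37L1.

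HSP90AA1 encodes HSP90 alpha, the stress-inducible cytosolic form. Its brighter probe set was at 7.14, 7.59 and 7.44 in endosulfan arrays, against 8.74, 8.03 and 8.71 in control arrays. Every endosulfan array lay below every control array, and control 2 was the nearest of the controls. The log2 difference was -1.11 ± 0.22 (SE, n = 3 each), so the level in control was 2.15-fold that in endosulfan arrays. In RNA of whole cultures, fewer cells that express a gene and less RNA per cell cannot be told apart. The second probe set was at 5.49, 5.98 and 5.61 in endosulfan arrays and 6.63, 6.05 and 6.57 in control arrays, a log2 difference of -0.72. Here too the groups did not overlap, but endosulfan 2 and control 2 were only narrowly apart. The values of both probe sets ran together over the 6 arrays (r = 0.98 over 6 arrays of 1 experiment, a description).

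Control 2, which had the highest spike-in level of the controls, had the lowest HSP90AA1 values among them, while control 1 and 3 had low spike-in levels and high HSP90AA1 values. Among the arrays with like spike-in level, endosulfan 1 and 2 against control 2, the log2 difference was -0.67 for the brighter probe set and -0.31 for the second. A fit with that level as covariate gave -0.68 for the brighter one, and no member passed in it. The spike-in level itself had means of 8.21 in endosulfan and 6.62 in control arrays. With 6 arrays this fit can hardly part it from the group, so the absence of calls in it shows little. For the same probe set, leaving out control 2 gave -1.34, the widest difference of the 6 fits that each left out 1 array. That fit lacks the only control with a spike-in level like that of endosulfan 1 and 2. Over the 6 fits the difference ran from -1.34 to -0.98, with adjusted p from limma between 0.0558 and 0.556.

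HSP90AB1 encodes HSP90 beta, the constitutive cytosolic form. Its single probe set was at 11.19, 11.42 and 11.23 in endosulfan arrays, against 11.93, 11.23 and 11.63 in control arrays. The groups overlapped, since control 2 lay among the endosulfan arrays. The log2 difference of -0.32 ± 0.18 (SE, n = 3 each) became 0.04 with the spike-in covariate and 0.08 among the arrays with like spike-in level, so its direction depends on this choice. A further probe set that the annotation gives to HSP90AB1 together with the pseudogene HSP90AB3P lies outside the rule and was not used here.

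Both cytosolic genes have near-identical pseudogene copies, and the array carries 8 probe sets for 7 of them, which were looked up after the annotation had been seen. Of the 2 probe sets of HSP90AA4P, the brighter was at 9.38, 9.63 and 9.54 in endosulfan and 9.78, 9.81 and 9.94 in control arrays, a log2 difference of -0.33, and the dimmer had a difference of -0.36. The groups did not overlap in either. The remaining 6 pseudogene probe sets, of HSP90AA5P, HSP90AA6P, HSP90AB2P, HSP90AB4P, HSP90AB5P and HSP90AB6P, overlapped between the groups and had differences from -0.15 to 0.17. Whether probes named for HSP90AA1 also bind transcripts of these copies, or probes named for the copies bind those of HSP90AA1, was not tested. The level of HSP90AA1 is therefore uncertain by an amount that was not measured.

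TRAP1, the mitochondrial HSP90, was at 11.07, 11.00 and 11.00 in endosulfan arrays, against 10.53, 11.11 and 10.88 in control arrays. The endosulfan values lay within the control range, which control 1 widened downwards. The log2 difference was 0.19 ± 0.16 (SE, n = 3 each), and it was -0.03 with the spike-in covariate and -0.07 among the arrays with like spike-in level. CDC37, the cochaperone that brings kinase clients to HSP90, had values of 9.44, 9.60 and 9.38 in endosulfan and 9.26, 9.50 and 9.52 in control arrays. Its log2 difference of 0.05 ± 0.12 (SE, n = 3 each) was smaller than the spread within either group. It was 0.06 with the spike-in covariate and 0.02 among the arrays with like spike-in level.

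CDC37L1 encodes a relative of CDC37 that binds HSP90 and HSP70. Its brightest probe set was at 5.82, 6.46 and 6.07 in endosulfan arrays, against 5.12, 4.97 and 4.50 in control arrays. Its second probe set was at 5.67, 6.24 and 5.78 in endosulfan and 4.79, 4.60 and 4.08 in control arrays. In both, every endosulfan array exceeded every control array, and endosulfan 2 was the highest and control 3 the lowest. The log2 differences were 1.26 ± 0.21 (SE, n = 3 each), a 2.39-fold difference, and 1.41, a 2.65-fold difference.

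The third probe set of CDC37L1 was dimmer and behaved otherwise, with 3.87, 4.80 and 4.00 in endosulfan and 4.25, 3.87 and 4.01 in control arrays. Only endosulfan 2 stood above the control range, and the log2 difference was 0.18. The brighter pair ran together over the arrays at r = 1.00, while the other pairings of the 3 probe sets had r of 0.53 and lower. With the mean of the 3 probe sets the gene's log2 difference was 0.95. The log2 difference of the brightest probe set was 1.17 in the arrays with like spike-in level and 1.13 with the spike-in covariate. Leaving out 1 array at a time gave 1.07 to 1.40, with adjusted p from limma between 0.0668 and 0.556.

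**Figure D2:**
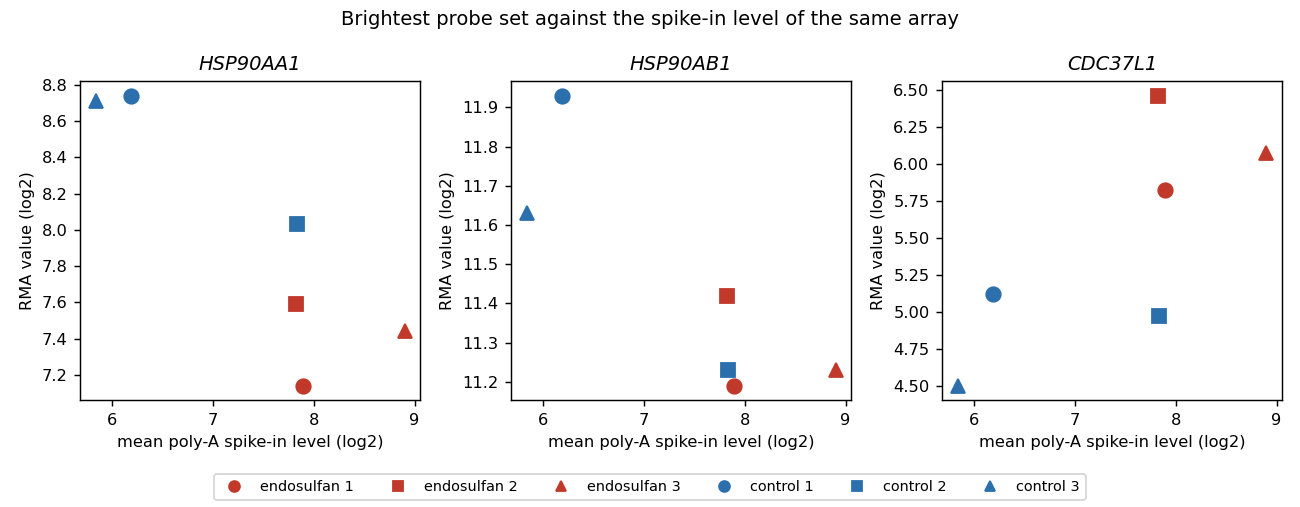
Brightest probe set (RMA value, log2) of HSP90AA1, HSP90AB1 and CDC37L1 in each array against the mean poly-A spike-in level (log2) of that array, red for endosulfan and blue for control. Control 2, at a spike-in level of 7.83, lies nearer to the endosulfan arrays than the other controls for HSP90AA1, among them for HSP90AB1, and with the controls for CDC37L1.

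Of the cochaperones that serve the client cycle, STIP1 and PTGES3 overlapped between the groups in every probe set. STIP1, also called HOP, links HSP70 to HSP90 and passes clients between them. Its brighter probe set was at 8.02, 8.25 and 8.02 in endosulfan and 8.28, 7.98 and 8.17 in control arrays, a log2 difference of -0.04 ± 0.13 (SE, n = 3 each). The dimmer one had a difference of -0.03, and the 2 did not follow each other over the arrays (r = 0.04 over 6 arrays). With the spike-in covariate the sign of STIP1 turned, at 0.15, and it was 0.16 among the arrays with like spike-in level.

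PTGES3 encodes p23, which holds HSP90 in its closed, ATP-bound state. Its brightest probe set was at 11.55, 11.80 and 11.47 in endosulfan arrays, against 12.20, 11.34 and 11.08 in control arrays. The control arrays alone spanned more than the endosulfan arrays, with control 1 the highest of the 6 and control 3 the lowest. This spread was shared: the 4 probe sets had r of 0.85 to 0.99 with one another, and control 3 was the lowest array in each. The log2 differences of the 4 were between 0.00 and 0.16. For the brightest, 0.07 ± 0.27 (SE, n = 3 each), the fits that each left out 1 array ran from -0.16 to 0.40. It was 0.24 with the spike-in covariate and 0.34 among the arrays with like spike-in level.

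FKBP4 and FKBP5 encode FKBP52 and FKBP51, prolyl isomerases that bind HSP90 in steroid receptor complexes. FKBP52 favours receptor activity, whereas FKBP51 restrains the glucocorticoid receptor and is itself a glucocorticoid-induced gene. The brightest FKBP4 probe set was at 11.19, 11.18 and 11.15 in endosulfan and 10.92, 11.30 and 11.29 in control arrays, with a log2 difference of 0.00 ± 0.13 (SE, n = 3 each). The endosulfan arrays were nearly level and lay between control 1 and the other controls. The difference was -0.07 with the spike-in covariate and -0.11 among the arrays with like spike-in level. The second probe set had a difference of 0.08. The third, at 2.96, 3.30 and 2.93 in endosulfan and 3.54, 3.45 and 3.23 in control arrays, had a difference of -0.34 at a level well below the median of all probe sets, and its groups overlapped.

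The 6 probe sets of FKBP5 did not point one way. The brightest was at 6.07, 6.91 and 6.42 in endosulfan arrays, against 7.54, 6.90 and 6.86 in control arrays. The groups overlapped because endosulfan 2 reached the lower pair of controls. Its log2 difference was -0.64 ± 0.25 (SE, n = 3 each), a level 1.55-fold higher in control. The difference was -0.46 with the spike-in covariate and -0.41 among the arrays with like spike-in level. The next was at 4.22, 4.69 and 4.55 in endosulfan and 5.08, 4.68 and 4.64 in control arrays, a difference of -0.31, and it also overlapped. The 4 dimmer probe sets had differences from 0.06 to 0.20 and mean levels from 2.80 to 4.37 in endosulfan arrays and from 2.74 to 4.20 in control arrays, all under the median of all probe sets. Pairwise r among the 6 ran from -0.78 to 0.98. With the mean of the 6 probe sets the difference of the gene was -0.06.

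**Figure D3:**
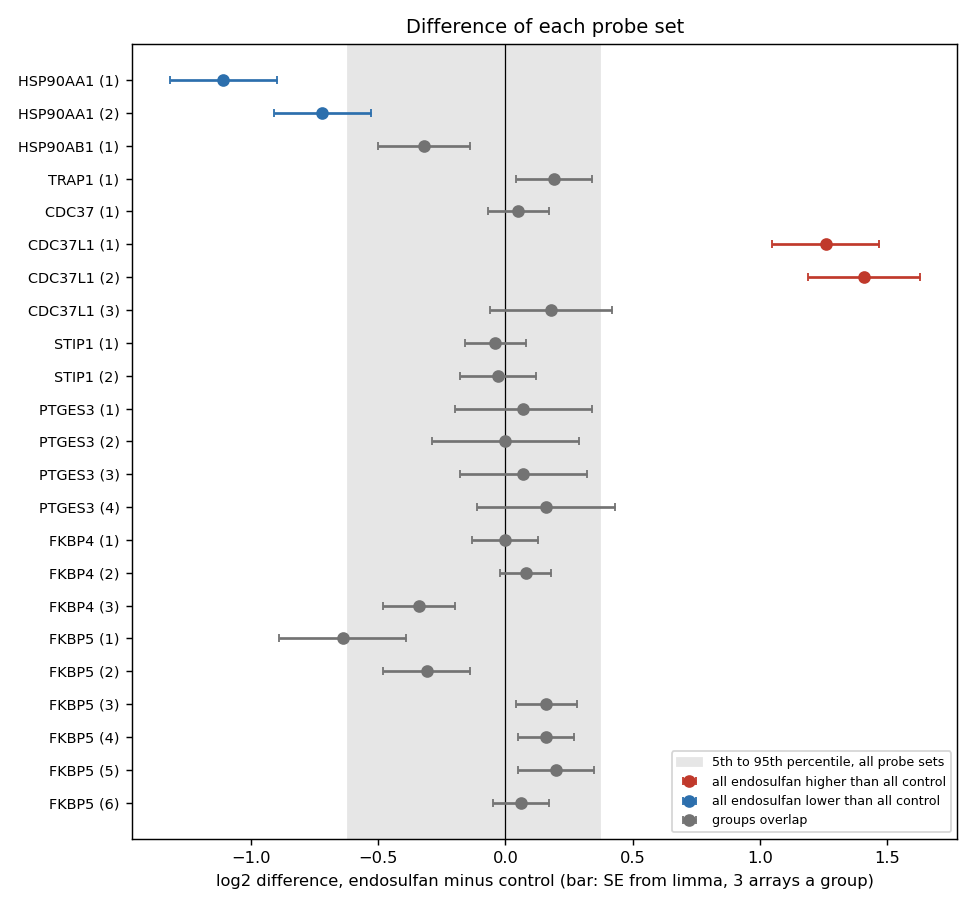
Log2 difference, endosulfan minus control, of each of the 23 probe sets, with the standard error from limma (n = 3 arrays each) as a bar, and the range from the 5th to the 95th percentile of all tested probe sets, -0.62 to 0.37, as a grey band. Both probe sets of HSP90AA1, the brightest of FKBP5 and 2 of CDC37L1 lie outside the band.

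The 5 lists of further pathway genes were described at gene level, and in each list 0 genes passed limma with Benjamini-Hochberg adjustment over all genes. All values of single genes that follow are therefore not calls. Of the genes named from the lists, FNIP1, NR3C2, CEBPD and LRRK2 had levels below the median of all probe sets, 4.92. Over all genes the median log2 difference was 0.05, and 39.8% of genes were below 0. At an unadjusted p below 0.05, 6.64% of all genes were higher and 10.5% lower, against 1 and 2 of the 9 members. The groups did not overlap for 12.4% of all genes on the higher and 10.2% on the lower side, against 1 and 1 of the members. The 9 members themselves had a median of 0.00, with 5 above and 4 below 0.

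Other HSP90 cochaperones and the ER form had 21 genes measured of 23, a median of 0.11, and 2 genes higher and 5 lower at an unadjusted p below 0.05. HSP90B1, the ER form also called GRP94, was at 8.42, 9.15 and 8.88 in endosulfan arrays, against 10.28, 9.54 and 9.85 in control arrays. Its groups did not overlap, the log2 difference was -1.08, and all of its 7 probe sets were below 0, from -1.35 to -0.31. FNIP1, a folliculin-binding cochaperone that slows the HSP90 ATPase, had a difference of -0.35, with 2 of its 4 probe sets on that side. On the higher side FLCN, the gene of folliculin, had 0.65, and FKBP8, an immunophilin of the mitochondrial surface, 0.43, with all their probe sets above 0.

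The list of HSF1 and heat-inducible genes had 16 genes measured of 18, a median of 0.05, and 2 genes higher and 5 lower at an unadjusted p below 0.05. Its genes did not lie on 1 side. HSPA1B, a stress-inducible HSP70 whose transcript is nearly identical to that of HSPA1A and may not be told apart from it, was at 10.12, 9.98 and 10.11 in endosulfan and 9.55, 9.82 and 9.58 in control arrays, and the HSP40 gene DNAJB1 had a difference of 0.27. HSPA8, the constitutive HSP70 that STIP1 binds, was at 11.59, 12.62 and 11.85 in endosulfan and 13.31, 12.64 and 12.87 in control arrays, and the nucleotide exchange factor HSPH1 had a difference of -1.06. In all of these 4 genes the groups did not overlap, though endosulfan 2 and control 2 were almost level for HSPA8. All 8 probe sets of HSPH1 and 6 of the 9 of HSPA8 were lower, and all 3 of DNAJB1 were higher.

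Steroid receptors that HSP90 holds ready for hormone had 5 of 6 genes measured, a median of 0.10, all 5 above 0 and between 0.04 and 0.12, and 0 genes at an unadjusted p below 0.05. The mineralocorticoid receptor NR3C2 had 0.12 and the oestrogen receptor ESR2 had 0.10, and both had probe sets of the opposite sign. Glucocorticoid-responsive genes had 12 of 12 measured, a median of 0.12, and 2 genes higher and 1 lower at an unadjusted p below 0.05. The kinase gene SGK1 was at 7.43, 8.66 and 7.68 in endosulfan and 9.75, 8.79 and 8.92 in control arrays, a difference of -1.23, with all 4 probe sets lower. NFKBIA, the inhibitor of NF-kappaB, had 0.56 and the transcription factor gene CEBPD 0.29, with all probe sets higher, and ERRFI1, an EGFR inhibitor, had -0.19.

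Kinase clients of HSP90 and CDC37 had 20 of 23 genes measured, a median of -0.03, and 1 gene higher and 7 lower at an unadjusted p below 0.05. The receptor kinase RET was at 7.44, 7.26 and 7.16 in endosulfan arrays, against 8.53, 8.11 and 8.02 in control arrays, a difference of -0.94. This rests on 1 of its 3 probe sets, since the other two lay on the opposite side. IGF1R, the IGF-1 receptor, had -1.13, with 5 of its 7 probe sets below 0. On the higher side AKT1 had 0.40 and LRRK2 0.19. The 3 probe sets of AKT1 ran from 0.00 to 0.40, and 1 of the 2 probe sets of LRRK2 was not higher.

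**Figure D4:**
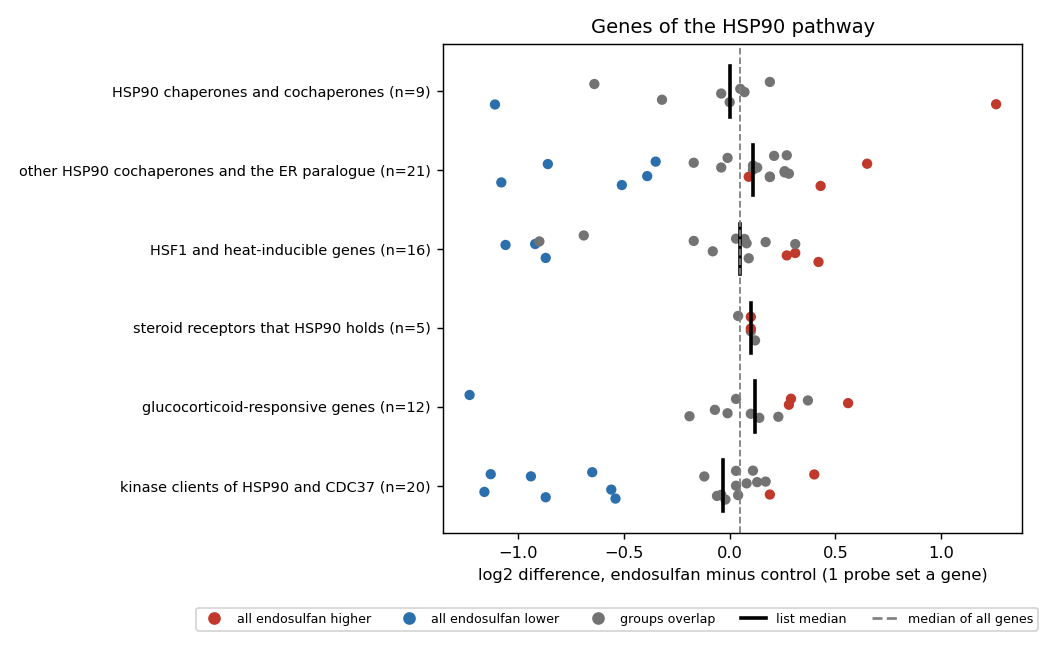
Log2 difference, endosulfan minus control, of each measured gene (1 probe set a gene) in the members and in 5 pathway lists, with the list median as a black bar and the median of all genes, 0.05, as a dashed line. Colours show genes whose 3 endosulfan arrays all lie above or all below the 3 control arrays, and list medians lie between -0.03 and 0.12.

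The genes most like CDC37L1, the member with the largest difference at gene level, were ranked by Pearson's r over the 6 arrays among 18131 other genes. They were PPIL6, of the peptidylprolyl isomerase family, at r = 0.995, the amyloid-binding membrane protein gene TM2D1 at 0.992, and the small nucleolar RNA host gene SNHG8 at 0.991. TM2D1 was at 8.20, 8.74 and 8.36 in endosulfan and 7.61, 7.68 and 7.11 in control arrays. SNHG8 was at 11.65, 11.89 and 11.80 in endosulfan and 11.20, 11.18 and 10.82 in control arrays. In all 3 genes the groups did not overlap, where 12.4% of all genes do so on the higher side. The 3 were picked for likeness to CDC37L1, whose groups do not overlap, so this is no separate result. These r values describe 6 arrays that share 1 contrast and carry no test.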

How the data were processed

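RNA of SH-SY5Y cells from 3 endosulfan and 3 control samples was measured on one-colour expression arrays. The authors deposited 1 table of log2 values, and per the submitters' processing notes these came from Affymetrix Expression Console with RMA. Versions and options are not stated. The quantile step of RMA removes a shift shared by most transcripts, and detection could not be judged without scanner intensities. For arrays, their number limits the precision. Of 49395 rows, 102 array controls were set aside. The platform annotation gave 1 gene to 44988 probe sets, several to 1832 and none to 2473, and each gene was represented by its brightest one-gene probe set.

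Endosulfan was compared with control by limma 3.58.1 (lmFit, eBayes) in R 4.3.3 on all 6 arrays, two-sided, with Benjamini-Hochberg adjustment over all probe sets or all genes and a threshold of 0.05. The fit was tested on simulated data. The members and lists were chosen with earlier results of these arrays known. Named were all members, up to 2 genes a direction in each list by smallest p, and the 3 genes most like the member with the largest difference. Alternatives were the replicate block, normalization, centring, a level filter, moderation settings, array weights, a spike-in covariate, the probe-set mean and each array left out. Promoters came from RefSeq. Figures used matplotlib 3.10.9 in Python 3.11.15.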

Additional observations from a re-analysis of the deposited data

Results flagged for a closer look

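The array's own hybridisation controls, which are added after labelling, were higher in each endosulfan array than in each control array. Their means were 10.9 ± 0.18 in endosulfan and 10.3 ± 0.29 in control arrays (log2, SD, n = 3 each), a difference of 0.63, with a two-sided exact permutation p of 0.1, the smallest that 3 arrays against 3 can give. For GAPDH, the level at the 3′ end minus that at the 5′ end, which rises as RNA degrades, was 0.84 ± 0.04 in endosulfan and 0.75 ± 0.06 in control arrays (log2, SD, n = 3 each), a difference of 0.09, also with an exact permutation p of 0.1. For ACTB, the 3′ minus 5′ level overlapped between the groups, with 3.75, 3.56 and 3.71 in endosulfan and 3.66, 3.57 and 3.53 in control arrays. The ACTB difference was 0.09, and the exact two-sided permutation test gave p = 0.3. The separation seen for GAPDH was thus not seen for ACTB. These measures come from probe sets that the comparison of transcripts does not use. Their part in the differences of the members was not tested.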

How the results depend on the processing

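The count of members past the threshold stayed at 0 probe sets and 0 genes under 13 and 14 alternatives; the filter on level tested 16 of the 23 probe sets. It was 5 probe sets and 4 genes with limma's array weights, a setting that called 14.4% of all probe sets and 32.6% of all genes. Those weights rested mainly on endosulfan 3 and control 3, and their estimate stopped before convergence at gene level. The 4 genes were HSP90AA1 at -1.20, HSP90AB1 at -0.35, CDC37L1 at 1.49 and FKBP5 at -0.48, and CDC37 turned to -0.10 and FKBP4 to -0.11. Each array left out in turn gave 0 calls. Over those fits the log2 difference ran from -0.04 to 0.09 for CDC37, from -0.13 to 0.02 for STIP1, from -0.12 to 0.07 for FKBP4 and from -0.16 to 0.40 for PTGES3, and thus turned sign in some of them. With the spike-in covariate the difference turned to 0.04 for HSP90AB1, -0.03 for TRAP1, 0.15 for STIP1 and -0.07 for FKBP4. In endosulfan 1 and 2 against control 2 it turned to 0.08, -0.07, 0.16 and -0.11 for these genes, and HSP90AA1 was at -0.67. FKBP4, whose log2 difference over all 6 arrays was 0.00, also turned to -0.01 with a further quantile normalization and -0.09 with the mean of its probe sets. The cause of these moves was not tested. Deviations of same-numbered arrays from their group means had r of -0.513, -0.403 and 0.051. With 3 arrays a group these cannot show whether the numbers mark a pairing, and the labels do not say. With the replicate block 0 probe sets and 0 genes passed. Of 135 tested values of single genes under an alternative, 115 kept their direction and their side of the threshold, 16 turned sign and 4 passed the threshold, the 4 with array weights. Of 9 values with no test, 4 turned sign and 1 moved by more than the spread between replicates. The number of arrays, 3 a group, limits the precision, and signal over background could not be judged.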
